A study of Mus musculus with 12 samples.

Results

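Knockdown of Jarid1b in neural progenitor cells (NPC) was examined in 6 arrays of a series of 12. The members were the 3 arrays titled LKOJarid1b (NPC), from cells carrying an shRNA against Jarid1b, and the 3 titled LKOScr (NPC), from cells carrying a scrambled shRNA. The other 6 arrays came from undifferentiated embryonic stem cells (ESC) with the same constructs, 3 arrays for each. The comparison, knockdown minus scrambled, covered 18784 genes, each read from its probe set with the highest mean. Values are log2 RMA levels, a scale without detection calls on which a difference of 1 is a 2-fold difference. Arrays are named below by construct and replicate number as in the titles.

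Both NPC groups descended from E14TG2a.4, a mouse ES cell line that grows without feeder cells. ES cells were transduced for 16 h with lentivirus made from PLKO.1 vectors, and puromycin selection began 48 h after transduction. The scrambled cells thus went through infection and selection as well. NPC were then obtained by a published differentiation protocol. The labels name a single Jarid1b shRNA construct, so an effect of that hairpin on other transcripts cannot be told apart from the loss of Jarid1b. They do not say whether replicates were separate cultures, so each p-value reflects how far the arrays of a group differed from one another, a spread that may be technical.

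Jarid1b, now called Kdm5b, is a demethylase of lysine 4 on histone H3 (H3K4), whose methylation is a mark found at the promoters of active genes. When stem cells are turned into neural progenitors, pluripotency genes and many germ cell genes active in the stem cell are silenced, and neural transcription factors such as Pax6 and Sox1 come on. Differentiating cultures can also hold cells of other lineages, such as endothelial cells, which form blood vessels.

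Across the genes tested, 154 (0.82%) rose and 40 (0.213%) fell in knockdown NPC at a limma adjusted p under 0.05, together 194 (1.03%). Of the genes that rose 60 changed at least 2-fold, and of those that fell 9. The scrambled NPC mean lay under 5.84, the lowest of the arrays' lower quartiles, in 18 of the 154 genes that rose. This held for 4319 of all 18784 genes. The 18 included Boll, Slc25a31, Tex11 and Fbxo15, described below, and the sizes of these rises are rough. The spread in the limma test was estimated from all 12 arrays, and every SE and interval given uses it. Over the genes that rose the median SD was 0.175 in scrambled and 0.255 in knockdown NPC, against 0.133 and 0.122 in ESC. Over those that fell it was 0.254 and 0.123 in NPC, against 0.126 and 0.0879 in ESC. Over all genes it was 0.141 and 0.0997 in NPC, against 0.136 and 0.101 in ESC. For genes that varied less in ESC, the SE can therefore be smaller than the NPC arrays alone would give. With the 6 NPC arrays alone 25 (0.133%) rose and 4 (0.0213%) fell, a total of 29 (0.154%), of which 27 were among the 194. Single arrays also moved the counts: 220 genes were called without scrambled replicate 1, of which 112 rose and 108 fell. The total was 98 without scrambled replicate 2, 83 without knockdown replicate 1 and 91 without knockdown replicate 2. Calls kept when any 1 of the 6 arrays was left out numbered 49 rises and 14 falls. Arrays within a group correlated at 0.992 to 0.997, and their medians lay between 7.70 and 7.79.

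**Figure D1:**
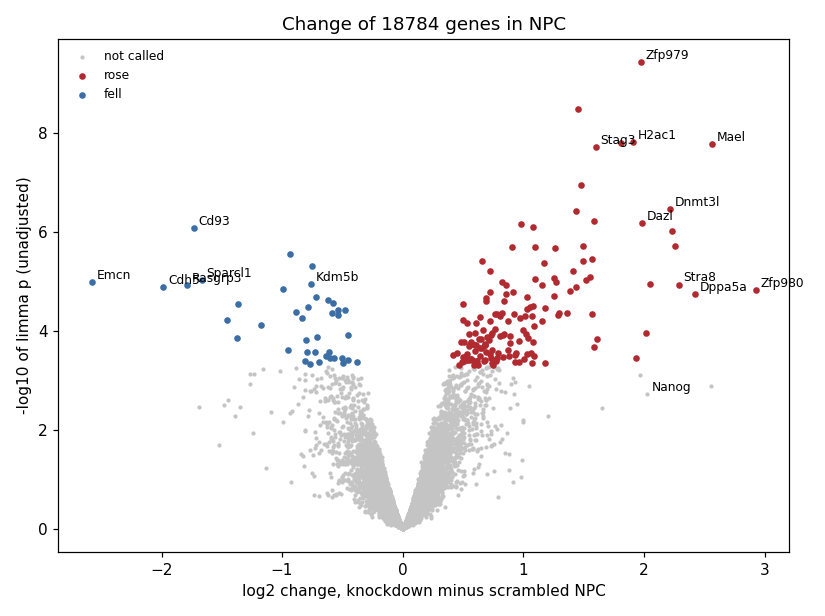
Change in knockdown NPC (x axis, log2 difference of group means) against the strength of evidence (y axis, −log10 of the limma p-value) for 18784 genes, with genes that rose or fell in colour and some named. More genes rose (154) than fell (40), and the germ cell gene Mael and the endothelial gene Emcn lie far out on either side.

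Kdm5b itself was the first check of the labels. It read 11.24, 11.15 and 11.30 in the scrambled NPC arrays and 10.38, 10.48 and 10.54 in the knockdown arrays. Every knockdown array lay below every scrambled array, by a gap several times the spread within either group. The change was -0.76 ± 0.11 (SE, n = 3 against 3), or 1.70-fold lower, with a 95% interval of -1.0 to -0.52 (limma adjusted p = 0.00524, and 0.0353 on the NPC arrays alone). The knockdown arrays thus kept a level well above the array medians. In ESC the same construct lowered Kdm5b from 12.41 ± 0.14 to 10.68 ± 0.20 (SD, n = 3 each), and the difference between these effects was 0.96 ± 0.16 (SE, adjusted p = 0.0172). The knockdown means were 10.47 in NPC and 10.68 in ESC, while the scrambled means differed by 1.18.

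The other enzymes of this mark did not pass the test. Of the 5 remaining H3K4 demethylase genes 0 rose and 0 fell, with a median change of -0.02. The closest relative, Kdm5a, changed by 0.09 (95% interval -0.16 to 0.33), and Kdm1b, a demethylase of another family, by -0.19 (95% interval -0.41 to 0.024). Of 14 H3K4 methyltransferase and cofactor genes, and of 29 Polycomb genes, which encode a silencing machinery, 0 rose and 0 fell. Cxxc1, a subunit that brings a methyltransferase to CpG-rich DNA, changed by -0.19 (95% interval -0.45 to 0.072). The Polycomb members with the smallest p were Cbx7, a reader of the Polycomb mark, at 0.47 (95% interval 0.086 to 0.85, adjusted p = 0.358), and Ring1, a ubiquitin ligase, at -0.25 (95% interval -0.47 to -0.026, adjusted p = 0.427).

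**Figure D2:**
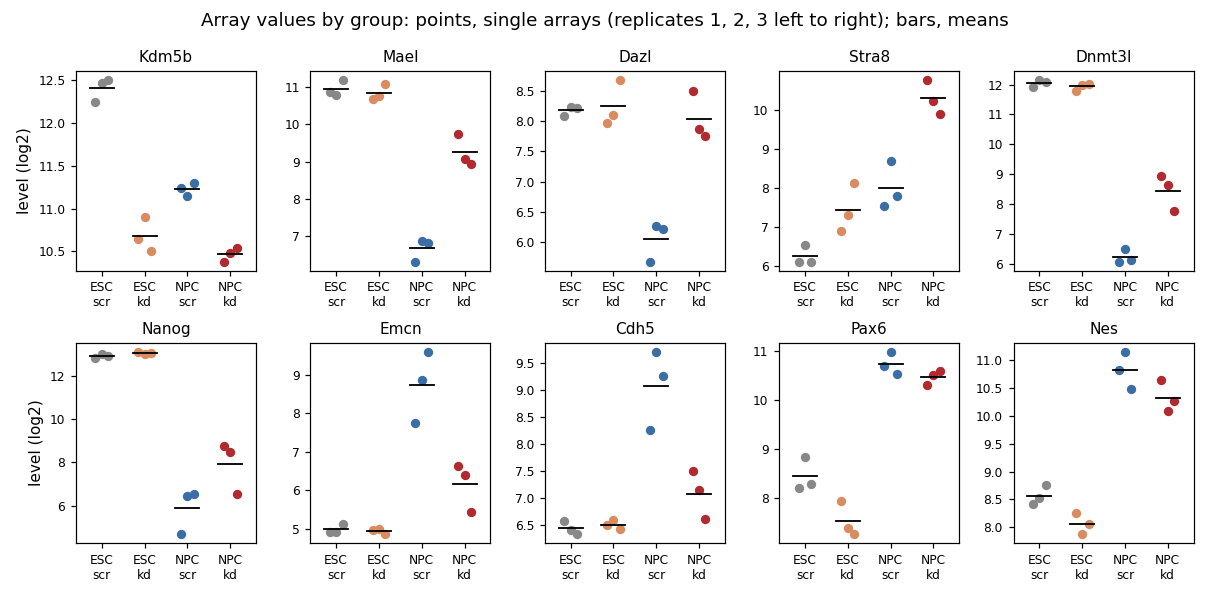
Log2 RMA level (y axis) of 10 genes in each array of the 4 groups (x axis), with points for arrays and bars for group means. Kdm5b was lower in every knockdown array of both states, and Mael in knockdown NPC lay between its scrambled NPC and ESC levels. Dazl came near its ESC level, with 1 array above it and 2 below. The NPC groups overlapped for Pax6 and Nes, with mean differences of -0.26 and -0.485, neither of them called.

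The label neural progenitor was borne out by the neural markers of both NPC groups. Pax6, a transcription factor of radial glia, read 10.69, 10.98 and 10.53 in scrambled NPC and 10.31, 10.52 and 10.58 in knockdown NPC, against 8.20 to 8.84 in scrambled ESC. Fabp7, a fatty acid carrier of radial glia, read 12.72, 12.04 and 12.18 in scrambled and 12.72, 12.29 and 12.43 in knockdown NPC, against 5.93 to 6.94 in scrambled ESC. The NPC groups overlapped for both genes, and both lay well above the ESC level. Pou5f1, a core factor of pluripotency, read 5.83, 6.11 and 6.55 in scrambled NPC and 12.62 to 12.71 in scrambled ESC, so it lay near the lower quartile of the arrays (5.84 to 6.11) in the control progenitors.

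Germ cell genes made up a larger share of the rises than any other group listed here. Of 87 genes in 3 lists of germ cell regulators, piRNA pathway genes and meiotic chromosome genes, 23 (26.4%) rose and 0 fell, where 0.82% of all genes rose. The median change over the 87 was 0.28, against 0.0037 over all genes. In 48 of them every knockdown array lay above every scrambled array, which held for 8.3% of all genes. On the NPC arrays alone 10 rose. Without knockdown replicate 1 the count was 14, and without any other single NPC array 17 to 22. These lists were drawn up with earlier results of these data known, so their counts describe the data and are not independent evidence of the direction.

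The promoters of several of these genes are shown because members that moved together can be compared letter by letter. The sequences are those RefSeq gives on GRCm38.p6 for the first listed start of each gene, 250 bases before it and 50 after, on the gene's strand, and capitals mark the motifs CACGTG (an E-box) and GCGGGA or its complement TCCCGC (E2F-like). Mael lies at chr1:166238695-166238994 (minus strand), Ddx4 at chr13:112652261-112652560 (minus), Stag3 at chr5:138280259-138280558 (plus), Sycp3 at chr10:88459337-88459636 (plus) and Dazl at chr17:50293571-50293870 (minus). Emcn, at chr3:137340828-137341127 (plus), is an endothelial gene that fell and is given for contrast. Each window holds the start of transcription, with upstream sequence and the first transcribed bases.
Mael: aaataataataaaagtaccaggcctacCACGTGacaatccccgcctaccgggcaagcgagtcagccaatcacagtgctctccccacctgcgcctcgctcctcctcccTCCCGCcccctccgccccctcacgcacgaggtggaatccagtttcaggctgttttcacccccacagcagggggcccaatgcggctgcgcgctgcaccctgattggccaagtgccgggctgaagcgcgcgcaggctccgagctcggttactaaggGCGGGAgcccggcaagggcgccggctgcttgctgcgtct
Ddx4: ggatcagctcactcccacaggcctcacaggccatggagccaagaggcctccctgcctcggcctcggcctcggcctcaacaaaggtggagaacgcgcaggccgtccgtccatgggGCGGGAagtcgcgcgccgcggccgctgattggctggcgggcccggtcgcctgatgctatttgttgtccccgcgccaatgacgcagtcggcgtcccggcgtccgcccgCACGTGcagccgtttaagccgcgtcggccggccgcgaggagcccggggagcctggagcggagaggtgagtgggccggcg
Stag3: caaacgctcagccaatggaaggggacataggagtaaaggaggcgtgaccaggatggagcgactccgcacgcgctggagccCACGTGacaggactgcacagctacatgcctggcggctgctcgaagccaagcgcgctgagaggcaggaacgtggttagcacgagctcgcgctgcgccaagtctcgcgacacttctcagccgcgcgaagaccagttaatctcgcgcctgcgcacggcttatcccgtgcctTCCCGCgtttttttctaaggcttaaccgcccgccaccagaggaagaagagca
Sycp3: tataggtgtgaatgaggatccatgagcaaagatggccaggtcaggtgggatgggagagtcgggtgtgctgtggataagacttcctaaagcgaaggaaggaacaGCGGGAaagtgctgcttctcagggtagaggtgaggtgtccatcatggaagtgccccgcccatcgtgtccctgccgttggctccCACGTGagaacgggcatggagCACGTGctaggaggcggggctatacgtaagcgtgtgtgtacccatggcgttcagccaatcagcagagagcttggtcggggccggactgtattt
Dazl: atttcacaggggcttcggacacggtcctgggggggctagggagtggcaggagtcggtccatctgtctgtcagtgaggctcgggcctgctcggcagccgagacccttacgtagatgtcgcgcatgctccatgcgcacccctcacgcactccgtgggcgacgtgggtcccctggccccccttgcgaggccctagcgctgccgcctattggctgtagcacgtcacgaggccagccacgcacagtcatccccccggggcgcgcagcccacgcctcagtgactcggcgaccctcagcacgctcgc
Emcn: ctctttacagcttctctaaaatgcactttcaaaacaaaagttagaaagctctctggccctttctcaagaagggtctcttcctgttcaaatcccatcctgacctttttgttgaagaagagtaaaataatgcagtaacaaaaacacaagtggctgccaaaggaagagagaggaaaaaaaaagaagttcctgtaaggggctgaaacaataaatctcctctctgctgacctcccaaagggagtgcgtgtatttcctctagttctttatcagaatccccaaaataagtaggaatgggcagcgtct
Mael, Ddx4, Stag3 and Sycp3 hold both motifs, Sycp3 with CACGTG at 64 and 43 bases before the start, and Dazl and Emcn hold neither. They were picked to show the motifs and do not stand for the list: both motifs occurred in 5 of 18 promoters of germ cell list genes that rose (27.8%), and in 3% of all promoters.

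Searched on both strands, CACGTG, which reads the same on either strand, was present in 7 of the 18 germ cell list genes that rose and had a listed promoter (38.9%). It was present in 12 of 53 uncalled genes of these lists (22.6%), in 14.5% of the 117 promoters of all genes that rose and in 8.41% of all 15059 promoters. GCGGGA or TCCCGC was present in 12 of the 18 (66.7%), in 32.1% of the 53, in 38.5% of the 117 and in 27.8% of all. The motifs can share 1 base at their ends and do not in the windows shown. The median number of CpG dinucleotides per promoter was 20 in the 18 genes, 15 over all genes and 7.5 over 26 endothelial list genes, none of which held either motif. The motifs were chosen with values known, and the shares describe letters in these windows, not binding of a factor.

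Among the germ cell regulators 9 of 34 rose, against 0.82% of all genes. Stra8, a retinoic acid-induced gene required for meiotic entry, read 7.54, 8.68 and 7.79 in scrambled and 10.76, 10.22 and 9.90 in knockdown NPC. Its rise was 2.29 ± 0.33 (SE, 4.89-fold, adjusted p = 0.00524, and 0.0481 on the NPC arrays alone). Every knockdown NPC array lay above every ESC array, of which the scrambled ones read 6.11, 6.54 and 6.11. The knockdown ESC arrays read 6.89, 7.30 and 8.12, and the difference between the effects in NPC and ESC was not called (1.10 ± 0.47 SE, adjusted p = 0.282). Of the retinoic acid list, to which Stra8 also belongs, it was the single member of 19 that rose.

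Dazl and Boll encode related RNA-binding proteins of germ cells. Dazl read 5.68, 6.27 and 6.22 in scrambled and 8.50, 7.87 and 7.75 in knockdown NPC, a rise of 1.99 ± 0.22 (SE, 3.96-fold, adjusted p = 0.0011, and 0.0274 on the NPC arrays alone). Knockdown replicate 1 lay above the scrambled ESC arrays (8.08, 8.23 and 8.21), and replicates 2 and 3 lay below all of them. Boll read 4.82, 4.57 and 5.10 in scrambled and 6.28, 5.86 and 5.89 in knockdown NPC, a rise of 1.18 ± 0.19 (SE, adjusted p = 0.01). In ESC the knockdown moved Boll the other way, from 7.25 ± 0.41 to 6.36 ± 0.084 (SD, n = 3 each), and the effects differed by 2.07 ± 0.27 (SE, adjusted p = 0.00682). The Boll call was lost without knockdown replicate 1 (adjusted p = 0.0528) or scrambled replicate 2 (adjusted p = 0.052).

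Transcription factors and other regulators of the germ line followed the same direction. Sohlh2, a helix-loop-helix factor of spermatogonia and oocytes, went from 6.07, 6.93 and 6.40 to 9.05, 8.66 and 8.39, a rise of 2.23 ± 0.26 (SE, adjusted p = 0.00117). Dmrt1, a factor of testis development and male germ cells, went from 6.96, 7.57 and 7.20 to 9.23, 8.70 and 8.29, a rise of 1.5 ± 0.20 (SE, adjusted p = 0.00306, and 0.0623 on the NPC arrays alone). In both genes knockdown replicate 1 was the highest array and no array of one group reached the other. Slc25a31, an ADP/ATP carrier of germ cells, rose by 1.55 ± 0.22, Tex14, a component of the bridges between germ cells, by 0.81 ± 0.13, and Dmrtb1, a relative of Dmrt1, by 0.57 ± 0.12 (SE). Tex14 lost its call without knockdown replicate 1 (adjusted p = 0.0541). Dmrtb1 lost it without knockdown replicate 1 (0.195), knockdown replicate 2 (0.11), scrambled replicate 1 (0.109) or scrambled replicate 3 (0.122). Members far from the test included Nanos2, Nanos3, Nobox and Prdm14, whose changes lay between -0.04 and 0.13.

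The piRNA pathway silences transposons in germ cells, and 8 of its 24 listed genes rose, against 0.82% of all genes. Mael, a component of the granules in which piRNAs are made, read 6.32, 6.89 and 6.83 in scrambled and 9.73, 9.07 and 8.94 in knockdown NPC. This rise of 2.57 ± 0.21 (SE, 5.93-fold, adjusted p = 6.07e-05, and 0.00811 on the NPC arrays alone) left the knockdown arrays below scrambled ESC, which read 10.86, 10.78 and 11.19. The groups are separated by more than the whole range of either.

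Ddx4, the germ cell RNA helicase also known as Vasa, went from 5.88, 6.07 and 5.65 to 7.89, 7.28 and 7.18, a rise of 1.59 ± 0.17 (SE, adjusted p = 0.0011). Rnf17, a Tudor domain protein, went from 5.97, 6.11 and 5.91 to 7.72, 7.38 and 7.31, a rise of 1.47 ± 0.14 (SE, adjusted p = 0.000301). Mov10l1, a helicase that processes piRNA precursors, went from 5.98, 6.07 and 5.82 to 7.73, 7.34 and 7.10, a rise of 1.43 ± 0.15 (SE, adjusted p = 0.000791). All 3 also passed on the NPC arrays alone, at adjusted p of 0.0353, 0.00811 and 0.0274. Tex19.1, which protects germ cells against retrotransposons, rose by 1.16 ± 0.20, Morc1, needed for transposon silencing in male germ cells, by 0.64 ± 0.13, the Piwi protein gene Piwil2 by 0.51 ± 0.10 and Gpat2 by 0.49 ± 0.10 (SE). Each of these 4 lost its call without at least 1 array: Tex19.1 without scrambled replicate 2 (0.0593), Piwil2 without knockdown replicates 1 (0.128) or 2 (0.116) or scrambled replicates 2 (0.0506) or 3 (0.0873). Morc1 lost it without every array but scrambled replicate 1 (0.0554 to 0.156), and Gpat2 without every array but knockdown replicate 3 (0.0618 to 0.205).

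The other Piwi genes and the Tdrd genes were not called. Piwil1 and Piwil4 changed by 0.05 and 0.07, and Tdrd1, Tdrd5, Tdrd7, Tdrd9 and Tdrd12 by between -0.02 and 0.18. The median over the 24 genes was 0.15.

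Of 31 meiotic chromosome genes 7 rose, against 0.82% of all genes. Stag3, a cohesin subunit of meiotic cells, went from 7.79, 8.14 and 7.85 to 9.79, 9.42 and 9.37, a rise of 1.60 ± 0.13 (SE, 3.03-fold, adjusted p = 6.07e-05, and 0.00811 on the NPC arrays alone). Sycp3, a structural protein of the synaptonemal complex that holds paired chromosomes together, went from 4.31, 5.41 and 4.84 to 7.82, 6.26 and 6.53, a rise of 2.02 ± 0.37 (SE, adjusted p = 0.0212, and 0.111 on the NPC arrays alone). All scrambled Sycp3 values were under the arrays' lower quartiles, and its call was lost without knockdown replicate 1 (0.0503), scrambled replicate 1 (0.0553) or scrambled replicate 3 (0.0608). The groups nonetheless did not overlap for either gene.

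Meioc, which keeps germ cells in meiotic prophase, went from 7.27, 7.62 and 7.67 to 9.34, 8.64 and 8.67, a rise of 1.36 ± 0.23 (SE, adjusted p = 0.0112). Hsf2bp, a recombination factor, rose by 1.26 ± 0.19, Ccnb1ip1, a ubiquitin ligase of crossover formation, by 0.90 ± 0.11, Tex11, a crossover factor, by 0.78 ± 0.13, and the cohesin subunit gene Rec8 by 0.72 ± 0.15 (SE). Tex11 lost its call without knockdown replicate 1 (0.0597), and Rec8 without every array but knockdown replicate 3 (0.0554 to 0.119). None of these 5 was called on the NPC arrays alone, where adjusted p lay at 0.0514 for Meioc, Tex11 and Ccnb1ip1, 0.0794 for Hsf2bp and 0.181 for Rec8. The enzymes that make and resolve meiotic breaks were not called: Spo11 changed by 0.14, Msh4 by 0.04, Msh5 by -0.14, Mlh3 by 0.12 and Dmc1 by 0.47 (adjusted p = 0.078). Sycp1, another synaptonemal protein gene, changed by 0.11.

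Pluripotency genes also rose, in smaller number. Over 42 genes in the lists of pluripotency factors and pluripotency-linked genes, 11 (26.2%) rose and 0 fell, where 0.82% of all genes rose, with a median change of 0.27. In 16 of them every knockdown array lay above every scrambled array, against 8.3% of all genes. On the NPC arrays alone 2 rose (Klf2 and Dnmt3l). The count was 6 without knockdown replicate 1 or scrambled replicate 2 and 5 without knockdown replicate 2.

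Dnmt3l, a cofactor of the DNA methyltransferases, read 6.07, 6.50 and 6.14 in scrambled and 8.95, 8.65 and 7.75 in knockdown NPC, a rise of 2.21 ± 0.23 (SE, 4.64-fold, adjusted p = 0.000791, and 0.0449 on the NPC arrays alone). Dppa5a, an RNA-binding protein of pluripotent cells, read 7.28, 8.67 and 8.29 in scrambled and 10.92, 11.07 and 9.52 in knockdown NPC, a rise of 2.42 ± 0.37 (SE, 5.37-fold, adjusted p = 0.00662, and 0.0905 on the NPC arrays alone). Dppa2, a chromatin protein of pluripotent cells, read 4.04, 4.81 and 4.31 in scrambled and 7.35, 6.55 and 6.03 in knockdown NPC, a rise of 2.26 ± 0.28 (SE, 4.78-fold, adjusted p = 0.00194, and 0.0504 on the NPC arrays alone). For all 3 the groups did not overlap, and the lowest knockdown array was replicate 3. Their scrambled ESC means were 12.05, 13.70 and 10.52, so the knockdown NPC arrays stayed well below the stem cell level. Scrambled Dppa2 was under the arrays' lower quartiles, which makes the size of its rise rough.

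Among transcription factors, Klf2 went from 8.21, 8.04 and 8.21 to 9.37, 9.14 and 8.89, a rise of 0.98 ± 0.11 (SE, adjusted p = 0.0011, and 0.0481 on the NPC arrays alone). Utf1, a chromatin-bound factor of pluripotent cells, rose by 1.44 ± 0.21, Zfp296 by 1.07 ± 0.18 and the nuclear receptor gene Esrrb by 0.64 ± 0.11 (SE). Fbxo15, an F-box protein gene of stem cells, rose by 1.93 ± 0.40, the Nodal co-receptor gene Tdgf1 by 1.02 ± 0.19, the ligand gene Nodal by 0.74 ± 0.15 and the phosphatase gene Alpl by 0.67 ± 0.14 (SE). Zfp296 lost its call without knockdown replicate 2 (0.0549) and Esrrb without knockdown replicates 1 (0.0707) or 2 (0.0647) or scrambled replicate 2 (0.0568). Tdgf1 lost it without knockdown replicates 1 (0.0597) or 2 (0.0949) or scrambled replicates 2 (0.0769) or 3 (0.0575). Fbxo15, Nodal and Alpl lost it without every array but knockdown replicate 3, at adjusted p of 0.0712 to 0.133, 0.0509 to 0.161 and 0.084 to 0.184.

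The core factors did not pass the test. Nanog read 4.70, 6.45 and 6.53 in scrambled and 8.74, 8.50 and 6.53 in knockdown NPC, a difference of 2.03 ± 0.52 (SE, 95% interval 0.90 to 3.15, adjusted p = 0.1). Pou5f1 read 5.83, 6.11 and 6.55 in scrambled and 7.67, 7.11 and 6.37 in knockdown NPC, a difference of 0.89 ± 0.25 (SE, 95% interval 0.35 to 1.43, adjusted p = 0.144). For both genes knockdown replicates 1 and 2 lay above the scrambled arrays and replicate 3 among them. Zfp42, another marker of naive stem cells, changed by 0.13 (95% interval -0.22 to 0.47), and Sox2, which stem cells and neural progenitors share, by -0.07. The list of formative and primed genes had 0 rises and 0 falls among 14, with a median change of -0.00084.

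Averaged per array, the lists repeated this order. The 34 germ cell regulators averaged 6.63, 6.72 and 6.56 in scrambled and 7.43, 7.22 and 7.17 in knockdown NPC, and the 19 pluripotency factors, Pou5f1 and Nanog among them, 8.24, 8.56 and 8.61 against 9.13, 9.02 and 8.67. Knockdown replicate 1 was highest and replicate 3 lowest in both lists, and no scrambled array reached the knockdown values. The scrambled ESC arrays averaged 7.53 to 7.60 for the germ cell regulators and 12.02 to 12.05 for the pluripotency factors. In a bulk sample a larger share of cells holding these RNAs and more of the RNA in each cell cannot be told apart, and the part of remaining stem cells in the rises was not tested.

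**Figure D3:**
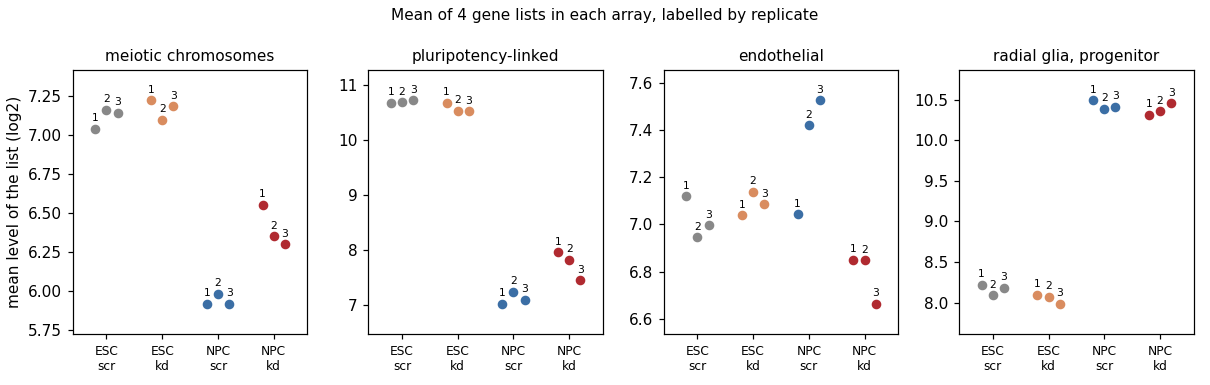
Mean log2 RMA level (y axis) of 4 gene lists in each array (x axis, arrays by group and replicate). The meiotic chromosome and pluripotency-linked lists were higher in all 3 knockdown NPC arrays than in the scrambled NPC arrays, with replicate 1 highest. The endothelial list was lower in all 3.

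Levels in stem cells differed between the genes that rose and those that fell. Among the 154 that rose, the median level was 9.49 in scrambled ESC, 9.51 in knockdown ESC, 7.26 in scrambled NPC and 8.19 in knockdown NPC. In 106 of them (68.8%) every scrambled ESC array lay above every knockdown NPC array, which held for 28.6% of all genes tested. In 14 (9.09%, against 26.1% of all genes) every scrambled ESC array lay below every knockdown NPC array. Among the 40 that fell the order was the opposite: the median was 6.43 in scrambled ESC, 8.59 in scrambled NPC and 7.38 in knockdown NPC. Every scrambled ESC array lay below every knockdown NPC array in 23 of them (57.5%) and above in 3 (7.5%). The 14 risen genes with lower ESC values were Stra8, H2-Bl, Rgs10, Tmem59l, Dok5, Nfix, Rec8, Dlx3, Trank1, Mlkl, Pgr15l, Sqor, Inka2 and Hoxb13, named after their values were seen. Hoxb13, a posterior Hox factor, rose by 0.50 ± 0.10 (SE) and was the single member of 38 Hox genes to rise, with none falling. Its call was lost without knockdown replicates 1 (0.193) or 3 (0.134) or scrambled replicates 2 (0.131) or 3 (0.112).

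The largest rise of all was that of Zfp980, a zinc finger gene of a cluster of near-identical copies whose probe sets may share signal. It read 3.61, 6.15 and 4.57 in scrambled and 7.84, 7.87 and 7.40 in knockdown NPC, a rise of 2.93 ± 0.43 (SE, 7.60-fold, adjusted p = 0.00596, and 0.0872 on the NPC arrays alone). Zfp979 of the same family read 3.70, 4.03 and 3.75 in scrambled and 5.98, 5.84 and 5.58 in knockdown NPC, a rise of 1.98 ± 0.12 (SE, 3.94-fold, adjusted p = 6.85e-06, and 0.00241 on the NPC arrays alone). Both groups of Zfp979 were tight and far apart, though its scrambled values, like those of Zfp980 in scrambled replicates 1 and 3, were under the arrays' lower quartiles. With no detection calls, the sizes of both rises, and the rank of Zfp980, are rough. Of 6 measured genes of the family 3 rose, against 0.82% of all genes. The third was Zfp600 (1.07 ± 0.23 SE), whose call was lost without any single NPC array (0.0507 to 0.193). The 10 measured genes of the 2-cell-like list, which are active in the early embryo, had 0 rises and 0 falls but a median change of 0.83. In 6 of them the groups did not overlap, with knockdown higher (8.3% of all genes). They included Usp17la at 1.97 ± 0.45 (SE, adjusted p = 0.0637), and its Usp17 family is made of near-identical copies.

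H2ac1, a histone H2A gene known from testis, rose with little spread between arrays. It read 10.10, 10.20 and 9.97 in scrambled and 12.14, 12.01 and 11.84 in knockdown NPC, a rise of 1.91 ± 0.15 (SE, 3.75-fold, adjusted p = 6.07e-05, and 0.00143 on the NPC arrays alone). The knockdown NPC arrays thereby overlapped the scrambled ESC arrays, which read 12.30, 11.82 and 12.19.

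The falls were led by genes of endothelial cells. Of 45 endothelial genes 9 (20%) fell and 0 rose, where 0.213% of all genes fell. The median change was -0.33. In 22 of the 45 every knockdown array lay below every scrambled array, against 5.91% of all genes. On the NPC arrays alone 1 was called (Cd93). The count was 17 without scrambled replicate 1, 5 without knockdown replicate 2, and 4 when genes of low mean level, Cd93 among them, were left out.

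Among the surface proteins, Emcn, the sialomucin endomucin, read 7.76, 8.87 and 9.58 in scrambled and 6.64, 6.39 and 5.44 in knockdown NPC, a fall of 2.58 on the log2 scale (SE 0.37, 5.98-fold, adjusted p = 0.00524, and 0.0847 on the NPC arrays alone). Cdh5, the cadherin of endothelial junctions, read 8.26, 9.70 and 9.25 in scrambled and 7.5, 7.15 and 6.61 in knockdown NPC, a change of -1.98 ± 0.29 (SE, adjusted p = 0.00558, and 0.085 on the NPC arrays alone). Cd93, a receptor of endothelial and immune cells, read 6.58, 7.12 and 7.56 in scrambled and 5.57, 5.32 and 5.18 in knockdown NPC, a change of -1.73 ± 0.20 (SE, adjusted p = 0.00113, and 0.0481 on the NPC arrays alone). Scrambled replicate 1 was the lowest scrambled array for all 3, and still above every knockdown array. In knockdown NPC, Emcn remained above its scrambled ESC values of 4.91 to 5.13, and Cd93 lay within its scrambled ESC range (4.94 to 5.33) in replicates 2 and 3 but above it in replicate 1.

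Regulators of endothelial signalling fell alongside them. Rasgrp3, an activator of Ras, went from 5.90, 7.28 and 7.11 to 5.03, 5.07 and 4.84, a change of -1.78 ± 0.26 (SE, adjusted p = 0.00524). Rhoj, a GTPase of vessel formation, changed by -1.37 ± 0.22, the adhesion receptor gene Adgrl4 by -1.46 ± 0.25 and the semaphorin receptor gene Plxnd1 by -1.18 ± 0.21 (SE). The orphan receptor gene Tie1 changed by -0.95 ± 0.19 and the claudin gene Cldn5 by -0.80 ± 0.15 (SE). None of these 6 passed on the NPC arrays alone. The knockdown values of Rasgrp3 and Adgrl4, like those of Cd93, were under the arrays' lower quartiles, so the sizes of these falls are rough. Adgrl4 lost its call without knockdown replicate 2 (0.0576), Plxnd1 without knockdown replicate 2 (0.0667) or scrambled replicate 3 (0.0509), Tie1 without every array but scrambled replicate 1 (0.086 to 0.145), and Cldn5 without knockdown replicates 2 (0.0898) or 3 (0.0863) or scrambled replicates 2 (0.0593) or 3 (0.0824).

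The VEGF receptors themselves did not pass the test. Kdr changed by -1.02 (adjusted p = 0.056) and Flt1 by -0.76 (adjusted p = 0.093), without overlap between the groups, while the ligand genes Vegfa, Vegfb and Vegfc lay between -0.04 and 0.13. The VEGF co-receptor gene Nrp1 fell by 0.57 on the log2 scale (SE 0.12, adjusted p = 0.0405), a call lost without any array but scrambled replicate 1 (0.0979 to 0.131). Pecam1 (-0.68) and Cd34 (-1.27) were lower in mean but not called, and Sox17, Sox7 and Egfl7, also on the list, changed by -0.02 to 0.07. Over the whole list of 45 genes, 39 changes were negative and 6 positive.

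Blood and matrix genes contributed a few more falls. Of 17 blood genes 2 fell, against 0.213% of all genes. Both were embryonic globins. Hbb-y fell by 0.89 (SE 0.15, adjusted p = 0.0112) and Hba-x by 0.63 (SE 0.13, adjusted p = 0.0384). Hbb-y lost its call without knockdown replicate 1 (0.0604) or scrambled replicate 2 (0.054), and Hba-x without every array but scrambled replicate 1 (0.0849 to 0.173). Both globins read under 7.2 in every scrambled NPC array, and their knockdown values lay within the range of the ESC arrays.

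Of 25 mesenchyme and matrix genes 2 fell and 0 rose, against 0.213% and 0.82% of all genes, with a median change of -0.27. Sparcl1, a matrix glycoprotein, read 8.63, 9.0 and 9.57 in scrambled and 7.86, 7.31 and 7.03 in knockdown NPC, a change of -1.67 ± 0.24 (SE, adjusted p = 0.00524). Postn, or periostin, fell by 0.81 (SE 0.17, adjusted p = 0.0432), a call lost without any array but scrambled replicate 1 (0.103 to 0.149). The collagen genes Col1a1, Col1a2 and Col3a1 changed by -0.38, -0.29 and -0.48 and were not called. Among the other large falls were Asb4, a ubiquitin ligase adaptor, with -1.38 ± 0.26, the growth factor gene Bmp5 with -0.99 ± 0.15 and the copper carrier gene Cp (ceruloplasmin) with -0.94 ± 0.12 (SE). Asb4 lost its call without knockdown replicates 2 (0.086) or 3 (0.0821) or scrambled replicate 2 (0.0686). The imprinted gene Dlk1, which encodes a transmembrane protein related to Delta, fell by 0.71 (SE 0.13, adjusted p = 0.0232), the single call among 22 imprinted genes, and lost it without knockdown replicates 2 (0.106) or 3 (0.0654) or scrambled replicates 2 (0.0844) or 3 (0.0788). Dlk1 was among 8 genes that fell in both states.

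Per array the endothelial list averaged 7.04, 7.42 and 7.53 in scrambled and 6.85, 6.85 and 6.66 in knockdown NPC, and the 25 mesenchyme and matrix genes 8.46, 8.69 and 8.65 against 8.36, 8.25 and 8.14. Scrambled replicate 1 was the lowest scrambled array in both lists and lay nearest to the knockdown arrays. The spread of these genes was wide in the scrambled group: over the 40 genes that fell the median SD was 0.25 in scrambled and 0.12 in knockdown NPC. The macrophage list gave no matching fall, with a median change of 0.00067 over 13 genes and 1 rise, Laptm5 (0.73 ± 0.15 SE). That call was lost without knockdown replicates 1 (0.184) or 2 (0.107) or scrambled replicates 1 (0.0972) or 2 (0.147). Laptm5 read 11.92 to 12.15 in scrambled ESC.

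**Figure D4:**
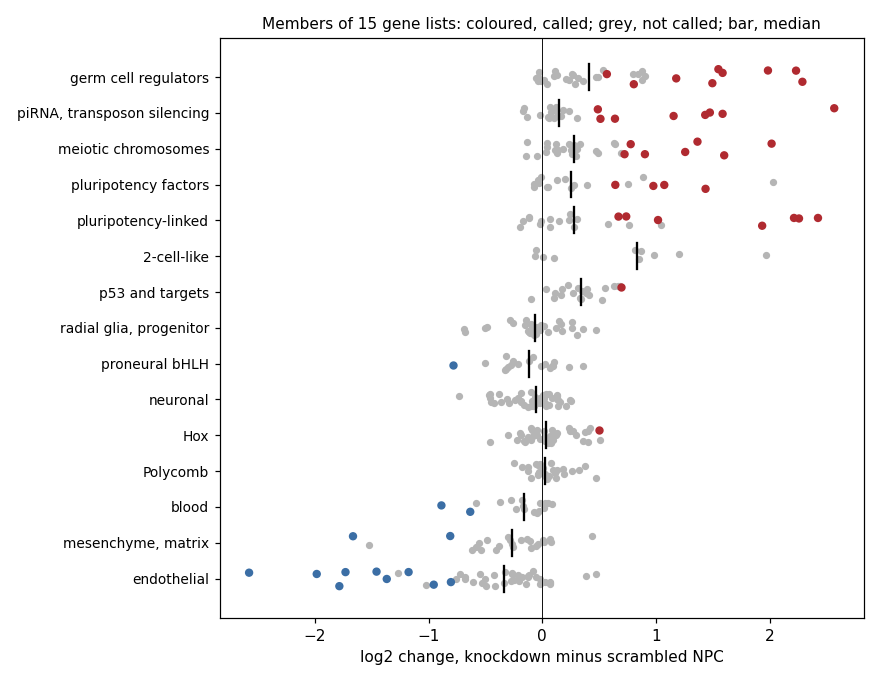
Change in knockdown NPC (x axis, log2 difference) of each measured member of 15 gene lists (rows), with members that rose or fell in colour. The germ cell and pluripotency lists spread to the right and the endothelial list to the left, while the neural lists centre near 0.

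The neural programme of the cells showed few calls, where 0.82% of all genes rose and 0.213% fell. Of 30 radial glia and progenitor genes, 46 neuronal genes, 14 glial genes, 16 neural crest genes, 21 brain region genes and 19 Notch pathway genes, 0 rose and 0 fell in each list. Median changes were -0.065 for progenitor genes, -0.056 for neuronal genes and -0.048 for Notch genes. In the progenitor list the extremes were -0.69 and 0.47.

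Nes, the filament protein nestin, read 10.82, 11.14 and 10.47 in scrambled and 10.64, 10.08 and 10.26 in knockdown NPC, a difference of -0.48 (95% interval -0.87 to -0.10, adjusted p = 0.33). Sox9, a factor of glial and progenitor identity, read 11.35, 11.33 and 11.33 in scrambled and 11.06, 10.94 and 11.15 in knockdown NPC, a difference of -0.29 (95% interval -0.50 to -0.075, adjusted p = 0.276). The Sox9 groups did not overlap and those of Nes did. Pax6 changed by -0.26 (95% interval -0.68 to 0.16), Sox1, an early neural factor, by -0.09 (-0.56 to 0.38), Fabp7 by 0.17 (-0.36 to 0.70) and the neuronal tubulin gene Tubb3 by 0.06 (-0.23 to 0.36). These intervals rest on the spread of the ESC and NPC arrays together, so they are not those of 3 arrays against 3 alone. On the NPC arrays alone the SE was larger for Nes and Sox1 and smaller for Sox9, Pax6, Fabp7 and Tubb3.

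Atoh1, a proneural factor of dorsal progenitors and hair cells, was the single fall among 19 proneural genes. It went from 7.94, 7.62 and 7.72 to 6.87, 7.23 and 6.83, a change of -0.79 ± 0.13 (SE, 1.72-fold lower, adjusted p = 0.00962), and lost its call without knockdown replicate 1 (0.0528). Its ESC level was 6.72 to 6.82 with the scrambled construct, so the knockdown NPC values lay close to those of stem cells. Nkx2-9, a factor of the ventral neural tube, was the single rise among 24 spinal patterning genes (0.97 ± 0.21 SE, adjusted p = 0.0441), with a call lost without any array but knockdown replicate 3 (0.0546 to 0.202). Neuronal genes with the smallest p were Gad2, which makes the transmitter GABA, at -0.47 ± 0.11 (SE, adjusted p = 0.0753), and the granin gene Scg3 at -0.43 ± 0.13 (SE, adjusted p = 0.175). In 8 of the 46 neuronal genes every knockdown array lay below every scrambled array, and in 0 above, against 5.91% and 8.3% of all genes.

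Stress and growth lists held few calls, where 0.82% of all genes rose and 0.213% fell. Of 21 p53 target genes 1 rose, Trp53inp1, a mediator of cell death and autophagy, with 0.69 ± 0.11 (SE, adjusted p = 0.00726, and 0.0759 on the NPC arrays alone). It read 10.87, 10.65 and 11.01 in scrambled and 11.64, 11.56 and 11.41 in knockdown NPC, without overlap. The median over the list was 0.34, 20 of the 21 differences were positive, and in 15 the groups did not overlap with knockdown higher (8.3% of all genes). Cdkn1a, the cell cycle inhibitor p21, was among the uncalled members, at 0.41 (adjusted p = 0.15). Of 14 cell cycle inhibitors, 26 replication and mitosis genes and 22 immediate early and stress genes, 0 rose and 0 fell in each list. The differences were positive in 11, 21 and 19 of them, and in 9603 of all 18784 genes.

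Of 18 glycolysis and hypoxia genes 2 rose and 0 fell, against 0.82% and 0.213% of all genes. All 18 differences were positive, with a median of 0.22. In 6 the groups did not overlap, with knockdown higher (8.3% of all genes). Slc2a3, a glucose transporter of neurons and early embryos, rose by 0.50 ± 0.09 (SE, adjusted p = 0.013) and Pfkp, a phosphofructokinase, by 0.69 ± 0.14 (SE, adjusted p = 0.0359). Slc2a3 lost its call without knockdown replicate 1 (0.0767) or scrambled replicate 2 (0.0519). Pfkp lost it without knockdown replicates 1 (0.175) or 2 (0.107) or scrambled replicates 1 (0.0913) or 3 (0.118). Endoderm genes (0 of 16) and trophoblast genes (0 of 12) had no calls, and Bmp5 was the single fall among 21 early mesoderm genes.

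The effect in NPC differed from that in ESC for many of the called genes. The difference of effects, which uses separate control arrays for each state, was called for 69 of the 154 genes that rose and 12 of the 40 that fell. These genes were picked by their NPC change, which is part of that difference. The choice itself thus raises these counts above the share over all genes. Over all genes 267 (1.42%) were called, 221 (1.18%) higher and 46 (0.245%) lower in NPC. This total was 35 without knockdown replicate 2, 71 without knockdown replicate 1, 97 without scrambled replicate 2 and 176 without knockdown replicate 3. It was 955 with array weights and 152 with the replicate number as a block, where same-numbered scrambled ESC and scrambled NPC arrays deviated together (correlations across genes of 0.266, 0.286 and 0.334) and scrambled and knockdown NPC arrays did so in 1 pair of 3 (-0.173, 0.192 and -0.171). Genes that the knockdown shifted in the same direction in both states numbered 5 rises and 8 falls, Kdm5b among the falls. In ESC 346 (1.84%) of all genes rose and 633 (3.37%) fell. Stag3 was one of the 5 rises, with 1.60 ± 0.13 in NPC and 0.82 ± 0.13 in ESC (SE). Mov10l1 was another, with 1.43 ± 0.15 and 0.57 ± 0.15 (SE). In 4 genes the directions were opposite: Boll, Nodal, Ovol1 and Sqor rose in NPC and fell in ESC, the last 2 named after their values were seen. For Nodal the levels were 6.93 ± 0.17 and 7.67 ± 0.28 in NPC and 11.37 ± 0.23 and 10.58 ± 0.060 in ESC (SD, n = 3 each), scrambled first, and the effects differed by 1.53 ± 0.21 (SE, adjusted p = 0.00738).

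**Figure D5:**
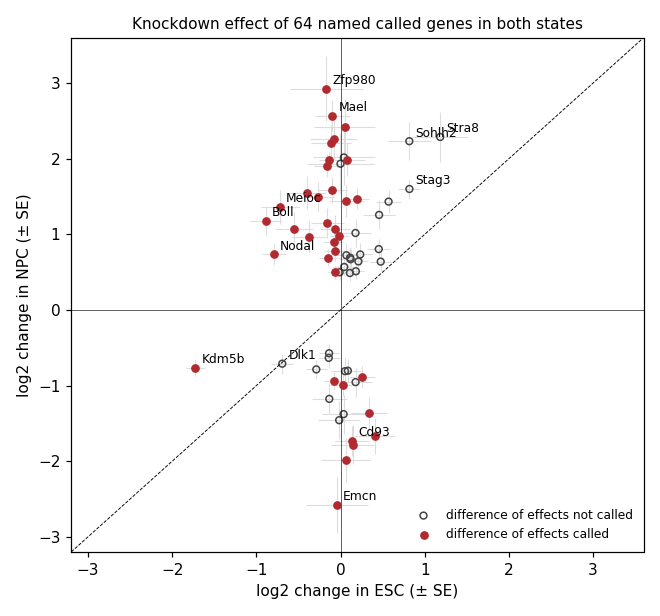
Knockdown change in NPC (y axis, log2 difference) against that in ESC (x axis) for 64 named genes called in NPC, with the 35 whose difference of effects was called in colour. Most germ cell and pluripotency genes lie high on the y axis and near 0 on the x axis, Kdm5b lies far to the left, and Boll and Nodal lie on opposite sides of 0 in the 2 states.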

How the data were processed

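RNA of 12 samples was measured on Affymetrix mouse gene arrays. The deposited values are log2 levels; the tools named in the submitters' processing notes are RMA, affy and limma, without versions. RMA corrects background, equalises the distributions of the arrays and summarises probes, and the values carry no detection calls. Of 21212 probe sets, 18786 had 1 symbol in the platform annotation, 6 several and 2420 none, and 18784 genes were tested. Here, limma 3.58.1 (R 4.3.3) fitted a group-means model to all 12 arrays (8 residual and 4.81 prior degrees of freedom), with Benjamini-Hochberg adjustment over the 18784 genes and a threshold of 0.05. Tests were two-sided, and an exact permutation of 3 against 3 cannot go below 0.1.

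The members and the 36 lists were chosen with earlier results of these data known. Named genes were Kdm5b, the 12 largest rises and falls without overlap (unnamed gene models passed over), every called list member, 2 members of smallest p where a list had none, and 8 state markers; others are marked as named after their values were seen, or stand as uncalled list members. Promoters came from RefSeq (GRCm38.p6), 300 bases each. On simulated data with 200 of 18784 genes changed, the NPC comparison recovered 94.5% at a log2 change of 1 and 44% at 0.5. The simulation gave each gene the same spread in all groups and no shifts shared by the genes of an array. Recovery in the data may therefore be lower. Alternatives were a replicate block, a low-value filter, the 6 NPC arrays alone, a trended robust prior, quantile normalization, median centring, array weights, the mean of probe sets, adjustment over all rows, a threshold of 0.01 and leaving out each array.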

Additional observations from a re-analysis of the deposited data

Results flagged for a closer look

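The knockdown effect differed between NPC and ESC for 37 of the 102 named genes, 28 higher and 9 lower in NPC. This is by the test of the difference itself (NPC minus ESC, log2, limma adjusted p under 0.05). Over all genes tested 1.18% were higher and 0.245% lower. Many named genes were picked by their NPC change, so the count and its direction follow in part from that choice. Kdm5b differed by 0.963, its fall being smaller in NPC. Among germ cell genes the difference was 2.66 for Mael, 2.08 for Meioc, 2.07 for Boll, 1.95 for Slc25a31, 1.91 for Dazl, 1.77 for Dmrt1, 1.68 for Ddx4, 1.31 for Tex19.1, 1.28 for Rnf17, 0.983 for Ccnb1ip1 and 0.849 for Tex11. Among pluripotency genes it was 2.38 for Dppa5a, 2.34 for Dppa2, 2.33 for Dnmt3l, 1.53 for Nodal, 1.37 for Utf1, 1.14 for Zfp296 and 0.99 for Klf2. It was 3.10 for Zfp980, 2.11 for Zfp979, 1.62 for Zfp600 and 2.07 for the histone gene H2ac1. The remaining positive values were 1.34 for Nkx2-9, 1.32 for En2, 1.24 for Btg2, 0.842 for Trp53inp1 and 0.559 for Slc2a3; En2 and Btg2 were not called within NPC.

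Of the 9 lower in NPC, 5 were endothelial: Emcn at -2.54, Cdh5 at -2.05, Rasgrp3 at -1.94, Cd93 at -1.87 and Rhoj at -1.70. The others were Sparcl1 at -2.08, Hbb-y at -1.15, Bmp5 at -1.02 and Cp at -0.858. Outside the named genes, 9 of 2426 probe sets without a single symbol were higher and 1 was lower in knockdown NPC at the same threshold.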

How the results depend on the processing

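Kdm5b was called under every alternative run, with changes of -0.719 to -0.804 when single arrays were left out. The 194 calls (154 rises, 40 falls) became 29 (25 and 4) on the 6 NPC arrays alone and 64 (50 and 14) at a threshold of 0.01, and falls numbered 63 after median centring. Without single arrays the total ran from 83 to 220, rises from 59 to 159 and falls from 17 to 108. A replicate block left 174 calls (144 and 30), 157 of them among the 194. Deviations of same-numbered scrambled and knockdown NPC arrays correlated at -0.173, 0.192 and -0.171. So few values cannot show whether such arrays shared a culture, and the labels do not say. Same-numbered scrambled ESC and NPC arrays correlated at 0.266, 0.286 and 0.334. The 267 differences of effects became 152 with the block, 955 with array weights and 18 at 0.01, and 35 to 229 without single arrays. Germ cell rises (23) became 10 on the NPC arrays alone and 12 at 0.01, and 14 to 22 without single arrays. Pluripotency rises (11) became 2 and 5, and 5 to 14. Endothelial falls (9) became 1 and 5, 4 with the low-value filter, which kept 10720 genes, and 5 to 17. Over 101 single genes and all alternatives, 1351 values kept direction and side of the threshold, 225 lost the call, 9 gained it and 6 changed sign, all of genes not called: Sox1 (-0.324 to 0.114 without single arrays, positive without scrambled replicate 2 and, at 0.0938, knockdown replicate 1), Fabp7 (-0.0117 with array weights), Tubb3 (-0.0783 to 0.165, negative without scrambled replicate 2) and Zfp42 (-0.0337 to 0.31, negative without scrambled replicate 1 and, at -0.0117, knockdown replicate 1). The cause was not tested. The low-value filter gave values for 76 of the 101 genes, and the genes it removed were not counted as lost calls. Of the 1351 values, 101 came from the mean of probe sets. That setting could hardly differ, as 18786 probe sets with 1 symbol covered 18784 genes. No scaling moved the median of all genes by over 0.1. With 3 arrays a group and no detection calls, small changes and changes near the floor of the array are poorly resolved.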

Other observations

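Other genes outside the naming rule, chosen after their values were seen, also rose with little spread. Pla2g1b, a secreted phospholipase gene, read 9.35, 9.52 and 9.20 in scrambled and 10.80, 10.78 and 10.84 in knockdown NPC (1.45 ± 0.10 SE, limma adjusted p = 3.05e-05, and 0.00241 on the NPC arrays alone). Upp1, which encodes uridine phosphorylase, read 9.02, 9.38 and 9.52 against 11.42, 11.04 and 10.90 (1.81 ± 0.15 SE, adjusted p = 6.07e-05, and 0.00979). Both lay below their scrambled ESC means of 12.53 and 12.84. Further rises of genes with roles in testis were those of M1ap (1.57 ± 0.20 SE), Catsperz (1.61 ± 0.30 SE) and Tcfl5 (0.63 ± 0.12 SE), of which Catsperz lost its call without 4 of the 6 arrays in turn and Tcfl5 without 5.

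Of the called genes, 5 pairs rose together that were neighbours among the measured genes on the RefSeq map (GRCm38.p6). They were Gpa33 with Mael, Dppa2 with Morc1, Gstt3 with Gstt1, Dtx3l with Parp9 and Mt2 with Mt1. Unmeasured genes may lie between them, and whether such pairs were more frequent than by position alone was not tested. The metallothionein genes Mt1 and Mt2 rose by 1.00 ± 0.21 and 0.89 ± 0.17 (SE), and Gpa33 by 0.82 ± 0.14 (SE). Among the falls, Myct1 read 5.70, 5.79 and 5.94 in scrambled and 5.05, 5.18 and 5.04 in knockdown NPC (-0.72 ± 0.11 SE, adjusted p = 0.00705, and 0.0491 on the NPC arrays alone). The stress response gene Sesn3 fell by 0.59 (SE 0.10) and in ESC as well.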
